A study of Homo sapiens with 6 samples.

Results

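The genes described here are 35 genes that act in G2 and mitosis, the phases in which a cell prepares to divide and divides. They were chosen by symbol, as a list of cyclins, mitotic kinases, checkpoint genes, kinesins, centromere and kinetochore genes and spindle genes. Of the 26485 gene symbols in the table of counts, 35 of the 35 list entries matched by their current symbol, and all 35 were among the 12107 genes that passed the filter on low counts. The libraries came from H9 cells, an established human cell line that the labels call a cutaneous T lymphocyte line. The control group was 3 libraries of H9 cells given the vehicle DMSO, and the PA4 group was 3 libraries of H9 cells given the compound code-named PA4 at 1 µM for 24 h. The vehicle was given for the same time, and all cells grew in one medium with serum and antibiotics. The submitters' stated aim was to learn by what mechanisms PA4 kills these cells. H9 is 1 cell line, and nothing in the labels says whether the replicates were separate cultures. The p-values below therefore measure the spread between these libraries only, which may be technical.

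Entry into mitosis is driven by the kinase CDK1 bound to cyclin A and B, and exit by the anaphase-promoting complex, a ubiquitin ligase that marks cyclin B and securin for destruction once the spindle checkpoint is satisfied. Transcripts of many of these proteins accumulate in G2 and M, through the MYB-MuvB complex and FOXM1, and are held down in resting cells by the DREAM complex, which reads a short promoter element called CHR. CCAAT boxes, bound by NF-Y, often lie upstream of that element. Because the RNA came from whole cultures, fewer cells in G2 and M cannot be told apart from less of these transcripts per cell.

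Library totals ranged from 18282212 to 22875191 counts, and the 35 genes together took 0.802% to 0.850% of each library's counts. CPM, the unit used throughout, is a count scaled to a common library size, here with TMM factors that lay within 0.33% of 1. The 8 T cell markers examined all had a mean of 10 or more counts. CD3E had 2099 to 2529 counts per library, and CD28, the lowest of the 8, had 79 to 130. Most markers of other cell types were low or absent, with summed counts of 6 to 17 for 5 myeloid markers and 12 to 26 for 5 fibroblast markers. The B cell markers CD79A and CD79B had 151 to 260 counts per library, while MS4A1 and PAX5 had at most 7. Among the 10 natural killer and epithelial markers, NKG7, GNLY and CDH1 had 126 to 231 counts and the other 7 had at most 5.

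The promoters of several members carry the CHR letters, and they are shown here as a description. The letters were not used to choose the genes. The choice was by function, however, and CHR is an element of many genes with this function, so the shares below are no independent finding. Of the 9 windows shown, 8 were picked because they hold these letters, and that of CCNB1, a central member, for contrast. Sequences are from RefSeq on GRCh38.p14, read 5′ to 3′ along the gene's strand, and cover the 100 bases before the annotated start. Capitals mark matches to the CHR letters, searched on both strands as TTTGAA. The variant TTCGAA, which reads the same on both strands, was counted with it. Capitals also mark the CCAAT box on either strand, and a match on the other strand shows as its reverse complement.
CCNB2: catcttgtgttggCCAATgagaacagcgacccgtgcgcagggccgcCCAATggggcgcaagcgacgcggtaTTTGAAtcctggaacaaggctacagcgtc
PLK1: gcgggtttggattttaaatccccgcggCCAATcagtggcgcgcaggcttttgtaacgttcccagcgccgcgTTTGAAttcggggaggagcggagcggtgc
CCNB1: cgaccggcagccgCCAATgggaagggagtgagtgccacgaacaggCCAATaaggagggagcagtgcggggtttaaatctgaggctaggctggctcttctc
BUB1B: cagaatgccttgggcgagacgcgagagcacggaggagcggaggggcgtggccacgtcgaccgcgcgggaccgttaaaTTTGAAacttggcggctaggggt
CDC20: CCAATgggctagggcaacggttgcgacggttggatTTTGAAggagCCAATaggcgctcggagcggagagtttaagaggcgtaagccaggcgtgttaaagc
KIF11: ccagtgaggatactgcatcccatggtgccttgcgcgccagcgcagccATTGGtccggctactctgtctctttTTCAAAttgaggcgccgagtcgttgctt
CENPA: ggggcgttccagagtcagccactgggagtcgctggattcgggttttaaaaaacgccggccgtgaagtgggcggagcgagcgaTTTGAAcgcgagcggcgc
PRC1: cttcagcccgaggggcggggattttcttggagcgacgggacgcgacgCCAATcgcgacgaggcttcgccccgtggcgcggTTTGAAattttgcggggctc
MKI67: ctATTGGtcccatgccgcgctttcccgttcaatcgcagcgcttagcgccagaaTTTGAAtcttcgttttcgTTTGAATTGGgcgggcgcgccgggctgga

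These windows lie at chr15:59105046-59105145, chr16:23678789-23678888, chr5:69167050-69167149, chr15:40160969-40161068, chr1:43358881-43358980, chr10:92593030-92593129 and chr2:26785956-26786055, and on the minus strand at chr15:90994536-90994635 and chr10:128126424-128126523. In CCNB2 and PLK1 the CHR letters began 29 bases before the start, in KIF11 28 bases, in BUB1B 23, in PRC1 20 and in CENPA 18. They lay farther out in CDC20, at 65 bases, and MKI67 held them at 47 and at 29 bases. The CCNB1 window held CCAAT at 87 and 55 bases before the start and neither form of the CHR letters, and CCNB2 held CCAAT at 87 and 54. Other forms of the CHR element were not searched, so a window without these letters may still hold one. A promoter window was found for 28 of the 35 members, and AURKA, FOXM1, UBE2C, PBK, TTK, TPX2 and BIRC5 had no entry. Within 100 bases before a start, the CHR letters occurred in 13 of 28 members (46.4%), against 6.14% of 27305 genes with a window. CCAAT occurred in 21 of 28 members (75.0%), against 21.6% of those genes, and the motifs occurred together in 10 of 28 (35.7%), against 1.25%. Within 250 bases the CHR letters occurred in 16 of 28 members (57.1%) and 17.2% of genes, and 1 pair of matches in the member promoters, in MKI67, shared bases. The genes with a window were not limited to tested genes, and no test of these shares was made. These are matches of letters only and say nothing of which factor was bound.

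At the level of RNA the 35 genes were abundant and lay at nearly the same level in the PA4 and control libraries. None of the 35 was called in edgeR's quasi-likelihood test at an adjusted p under 0.05, where 0.231% of all tested genes (28 of 12107) were called, 0.215% as higher with PA4 and 0.0165% as lower. DESeq2 and limma-voom also called 0 of the 35. At an unadjusted p under 0.05 the count was 0 of 35, where 5.29% of all tested genes passed, 2.69% as higher and 2.6% as lower. The median log2 fold change of the 35 genes, PA4 against control, was 0.0021, beside -0.0040 over all tested genes. Single values ran from -0.073 to 0.10, 19 of them positive (54.3%, against 47.6% of all tested genes). Their p-values after adjustment over the whole set of tested genes (edgeR) were 0.961 to 0.999.

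The 95% intervals were narrow, but like the p-values they measure the spread between these libraries only, which may be technical. For 34 of the 35 genes (97.1%) the interval lay within 1.25-fold either way. The same held for 95.6% of the 8564 tested genes whose mean level was at least 10 CPM. Among the 35, the exception was CDC25C, the least abundant member, whose interval lay within 1.5-fold. Leaving that gene out, the lowest lower bound was 0.873, in PTTG1, and the highest upper bound was 1.15-fold, in ASPM. The median standard error of the 35 log2 fold changes was 0.042.

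**Figure D1:**
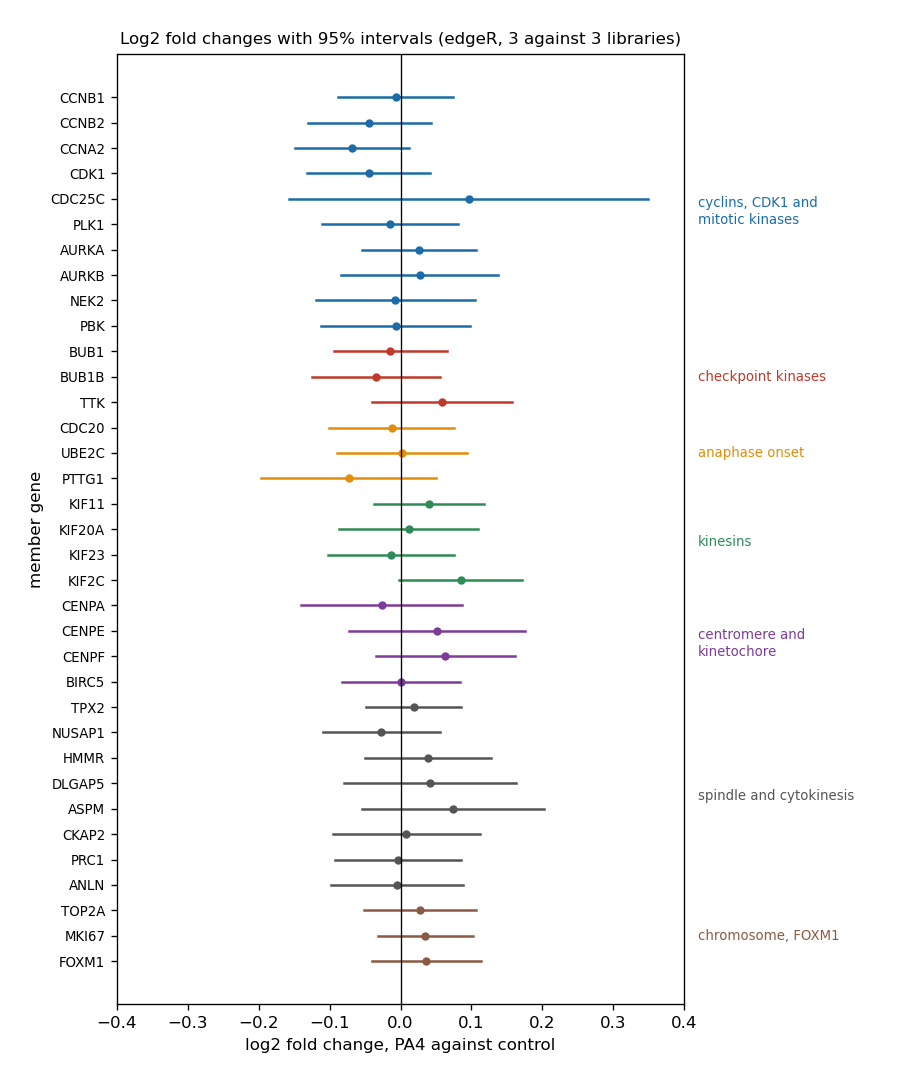
Log2 fold change of each of the 35 genes, PA4 against control (horizontal axis), with its 95% interval as a line, grouped by role in colour. Each interval includes 0, and that of CDC25C is the widest, from -0.16 to 0.35.

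The cyclins, CDK1 and the mitotic kinases with their activator, 10 genes, act in entry into mitosis or in its later steps, and none was called. CDK1, the kinase that drives entry into mitosis, had 210.1, 229 and 233 CPM in control replicates 1 to 3 and 214, 214 and 223 CPM in PA4 replicates 1 to 3. The PA4 values lay inside the control range, and the log2 fold change was -0.045 ± 0.041 (SE) with an interval of -0.13 to 0.042. CCNB1, which encodes cyclin B1, had 205, 207 and 192 CPM in control and 201, 203 and 196 CPM with PA4, and here too every PA4 library lay inside the control range. Its fold change had a 95% interval of 0.941 to 1.05. CCNB2, the gene of cyclin B2, stood at 132 ± 5.45 CPM in the control libraries against 128 ± 0.970 CPM in the PA4 libraries (mean ± SD, n = 3 per group).

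CCNA2, the gene of cyclin A2, which acts in S phase and G2, had the lowest log2 fold change of this role. It had 263, 287 and 285 CPM in control and 267, 262 and 266 CPM with PA4. Control replicates 2 and 3 were the high libraries, while control replicate 1 lay within the PA4 range, so the groups overlapped. The log2 fold change was -0.069 ± 0.038 (SE), with an unadjusted p of 0.0883 in edgeR and an adjusted p of 0.963. In the GENCODE 29 annotation, 9.08% of the exon bases of CCNA2 were shared with EXOSC9 on the opposite strand, and whether counting used strand is not given in the sources used here.

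CDC25C, the phosphatase that activates CDK1 by removing inhibitory phosphates, was the rarest member and had the highest log2 fold change. The gene lies at chr5:138285265-138338355 on GRCh38.p14. Its 109 to 144 counts per library gave 5.64, 6.29 and 6.30 CPM in control and 7.13, 5.75 and 6.69 CPM with PA4. PA4 replicate 1 was the highest library and control replicate 1 the lowest, and PA4 replicate 2 lay inside the control range. The log2 fold change of 0.10 ± 0.12 (SE) was smaller than its standard error, and its exons shared 8.78% of their bases with FAM53C on the opposite strand.

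PLK1, a kinase of mitotic entry, the centrosome and cytokinesis, had 179, 163 and 163 CPM in control and 170.3, 171 and 159 CPM with PA4. Control replicate 1 was the highest library and PA4 replicate 3 the lowest. AURKA, the Aurora kinase of the centrosome and spindle poles, had 142, 147 and 145 CPM in control and 145, 150.0 and 147 CPM with PA4, the narrowest relative spread in control among these 10 genes, with a coefficient of variation of 1.92%. AURKB, the Aurora kinase of the chromosomal passenger complex, had 78.5, 69.4 and 70.3 CPM in control and 73.6, 73.2 and 75.6 CPM with PA4. Its control libraries held both its highest and its lowest value, and its log2 fold change was 0.027 ± 0.052 (SE). NEK2, a kinase that separates centrosomes, and PBK, a mitotic kinase also called TOPK, had log2 fold changes of -0.0074 and -0.0070. In this role 3 of 10 log2 fold changes were positive, 0 genes were called, and the median was -0.0072.

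The 3 genes of the spindle checkpoint, which delays anaphase until every chromosome is attached, had overlapping groups and 0 calls. BUB1B, the gene of BUBR1, a part of the complex that blocks the anaphase-promoting complex, had 127, 135 and 139.6 CPM in control and 129, 134 and 129.8 CPM with PA4. The PA4 libraries lay inside the control range, with a log2 fold change of -0.035 ± 0.043 (SE). BUB1, which marks kinetochores for checkpoint proteins, stood at 177 ± 6.23 CPM in the control libraries against 175 ± 0.925 CPM in the PA4 libraries (mean ± SD, n = 3 per group). TTK, the gene of MPS1, which starts checkpoint signalling, was at 0.059 ± 0.047 (SE) log2, with control replicate 1 the lowest library at 86.7 CPM against 95.6 and 95.1 CPM in the other controls. The median of the role was -0.014 and its mean 0.0031, of opposite sign.

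The genes of anaphase onset were CDC20, the activator of the anaphase-promoting complex, UBE2C, its ubiquitin-conjugating enzyme, and PTTG1, which encodes securin. CDC20 had 199.5, 184 and 181 CPM in control and 185, 191 and 183 CPM with PA4. Control replicate 1 was above all other libraries, and the log2 fold change was -0.012 ± 0.042 (SE). UBE2C stood at 101 ± 1.94 CPM in the control libraries against 101 ± 3.73 CPM in the PA4 libraries (mean ± SD, n = 3 per group), a log2 fold change of 0.0021. PTTG1 had the lowest log2 fold change of all 35 genes, -0.073 ± 0.058 (SE), from 35.8, 36.4 and 37.3 CPM in control and 33.4, 36.2 and 34.4 CPM with PA4. The gene lies at chr5:160421855-160428744 on GRCh38.p14. PA4 replicate 2 lay inside the control range, and the interval of the fold change was 0.873 to 1.04. The near copies PTTG2 and PTTG3P had at most 1 and 3 counts in any library, although reads that fit more than 1 copy may have been dropped or moved in counting. The median log2 fold change of these 3 genes was -0.012.

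Among 4 kinesins, motors that move along microtubules, KIF2C was the single member of the 35 whose PA4 libraries all lay beyond the control libraries. KIF2C, also called MCAK, is a kinesin that takes microtubules apart at the centromere. The gene lies at chr1:44739837-44767767 on GRCh38.p14. It had 90.9, 92.3 and 90.3 CPM in control and 97.0, 97.1 and 95.9 CPM with PA4. The groups were 91.2 ± 1.02 and 96.7 ± 0.671 CPM (mean ± SD, n = 3 per group), and the log2 fold change was 0.085 ± 0.041 (SE) with an interval of -0.0019 to 0.17. Its unadjusted p of 0.0546 in edgeR was the smallest of the 35, and its adjusted p was 0.961. Such a separation was found in 1 of 35 members (2.86%), against 11.2% of all tested genes (5.91% with PA4 above control and 5.31% below), and the gene was not called.

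KIF11, the motor that pushes spindle poles apart, had 287, 303 and 311 CPM in control and 308, 302 and 317 CPM with PA4. Its lowest library was control replicate 1 and its highest PA4 replicate 3, and the log2 fold change was 0.040 ± 0.036 (SE). KIF20A and KIF23, motors of the midzone and cytokinesis, were at 0.011 ± 0.047 (SE) and -0.013 ± 0.042 (SE). The 4 kinesins had a median log2 fold change of 0.026, with 3 positive values and 0 calls.

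At the centromere and kinetochore, CENPA, the histone H3 variant that marks centromeres, had 44.1, 42.5 and 42.7 CPM in control and 41.2, 43.7 and 42.0 CPM with PA4. The groups overlapped, with a log2 fold change of -0.026 ± 0.054 (SE). Within its exons, 6.96% of bases were shared with SLC35F6 on the same strand. CENPF, a large kinetochore protein, stood at 767 ± 50.9 CPM in the control libraries against 802 ± 50.0 CPM in the PA4 libraries (mean ± SD, n = 3 per group), and the kinetochore motor CENPE at 185 ± 15.6 CPM and 192 ± 15.5 CPM. In each of these large genes control replicate 3 and PA4 replicate 3 were among the 3 highest libraries. BIRC5, which encodes survivin of the chromosomal passenger complex, was at a log2 fold change of 0.00057 with an interval of -0.083 to 0.084, the value closest to 0 among the 35. The median of this role was 0.026, and 0 of 4 genes were called.

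The 8 genes of the spindle and of cytokinesis had a median log2 fold change of 0.013, with 5 positive values and 0 calls. TPX2, which targets Aurora A to the spindle, was the most abundant per length, at 103 ± 2.28 CPM per kilobase in control (SD, n = 3), and its fold change had an interval of 0.967 to 1.06. ASPM, a spindle pole protein, and DLGAP5, which stabilizes spindle fibres, varied most in control, with coefficients of variation of 9.58% and 8.48%. ASPM ran from 287 to 344 CPM in control and from 297 to 346 CPM with PA4. HMMR and NUSAP1, which bind spindle microtubules, were at 0.039 ± 0.042 (SE) and -0.027 ± 0.039 (SE) log2. CKAP2, a microtubule-binding protein, PRC1, the bundler of the central spindle, and ANLN, a scaffold of the cleavage furrow, were at 0.0080, -0.0033 and -0.0054 log2. Exons of PRC1 shared 7.35% of their bases with PRC1-AS1 on the opposite strand.

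The last 3 genes act on chromosomes or on transcription of the others. MKI67, which encodes the proliferation antigen Ki-67, had 1856, 1838 and 1971 CPM in control and 1861, 1961 and 1983 CPM with PA4. Control replicate 3, PA4 replicate 2 and PA4 replicate 3 were the high libraries, and the log2 fold change was 0.035 ± 0.032 (SE). TOP2A, the topoisomerase that untangles sister chromatids, had 708, 757 and 792 CPM in control and 746, 764 and 789.6 CPM with PA4, with its PA4 values inside the control range. FOXM1, the transcription factor that activates many G2/M genes, had 181, 179 and 173 CPM in control and 183, 183 and 180.1 CPM with PA4. The log2 fold change of FOXM1 was 0.037 ± 0.036 (SE), and 15.9% of its exon bases were shared with ITFG2 on the opposite strand. The 3 values were all positive, with a median of 0.035 and 0 calls.

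**Figure D2:**
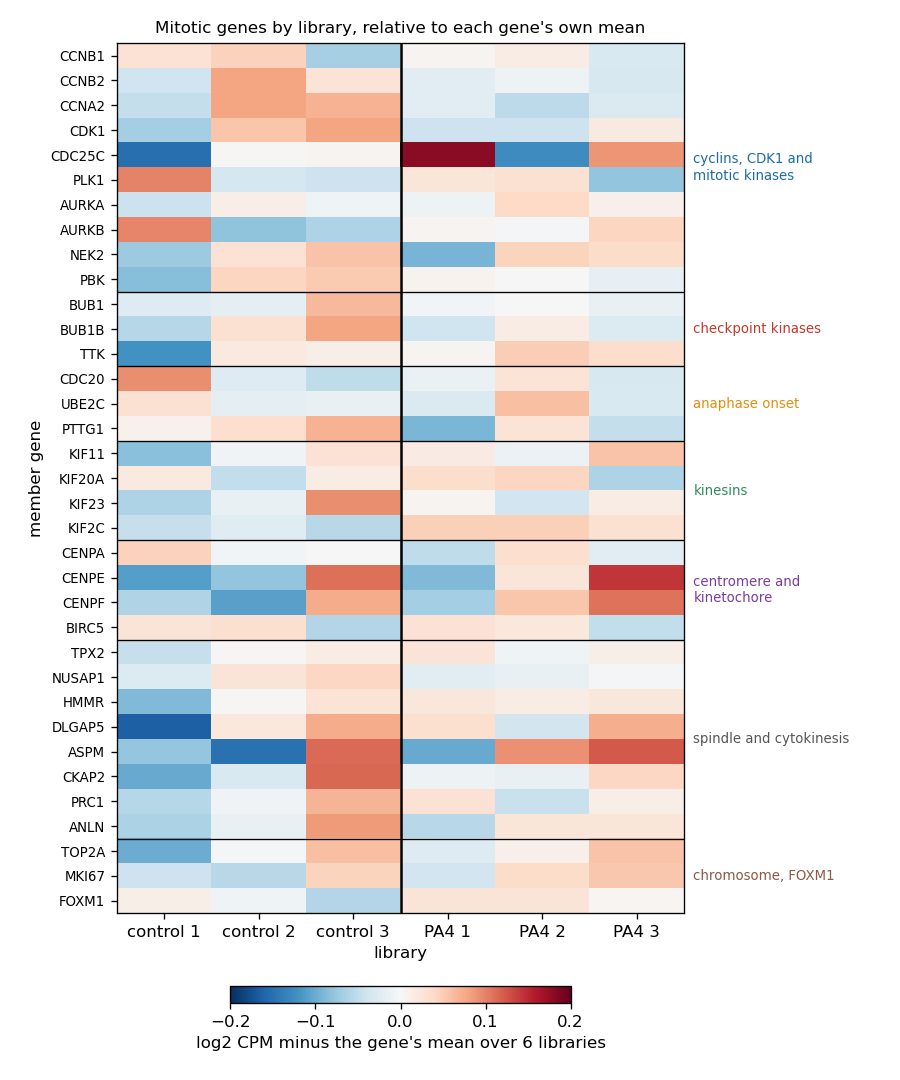
Colour gives log2 CPM minus the gene's mean over the 6 libraries, with 1 row per gene, grouped by role, and 1 column per library. Columns differ within each group: control replicate 1 is mostly below and control replicate 3 mostly above the gene means, and no role separates the groups.

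Summed over roles, levels overlapped between the groups in each of the 7 roles. The 10 cyclin and kinase genes summed to 1343 to 1392 CPM in control and 1343 to 1352 CPM with PA4. All 35 genes summed to 8198 ± 263 CPM in the control libraries against 8314 ± 179 CPM in the PA4 libraries (mean ± SD, n = 3 per group), a ratio of 1.01. Ratios of the role sums ran from 0.983 for cyclins and kinases to 1.03 for the centromere and kinetochore genes. Such sums are weighted to abundant genes. In control, CENPF had a mean of 767 CPM of the 1175 CPM of the centromere and kinetochore genes. MKI67 had 1888 CPM of the 8198 CPM of all 35 genes. The role medians of the log2 fold change lay between -0.014 and 0.035, and no test between roles was made. In 4 of the 7 roles the sign of the median depended on 1 library. Without control replicate 1 the median was -0.030 for spindle and cytokinesis genes and 0.018 for anaphase genes, and without control replicate 3 it was 0.016 for checkpoint genes. Without PA4 replicate 3 it was 0.0042 for cyclins and kinases and 0.0022 for anaphase genes. The median over all 35 genes was 0.022 without control replicate 3.

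**Figure D3:**
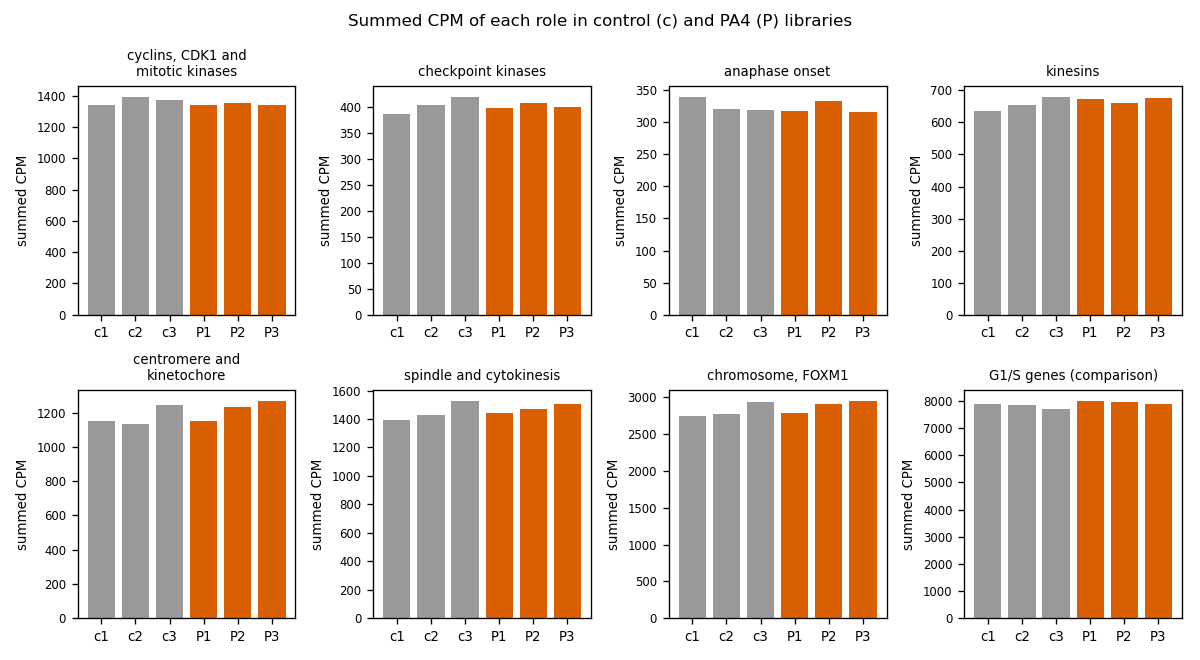
Bars give the summed CPM of the genes of each role in each library (c1 to c3 control, P1 to P3 PA4), with G1/S genes as a comparison, on axes that start at 0. In the cyclin and kinase genes, for example, the 3 PA4 bars (1343 to 1352 CPM) lie within the control range of 1343 to 1392 CPM.

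Levels of different genes were compared as CPM per kilobase of the authors' gene model. In control, MKI67 was highest at 151 ± 5.78 CPM per kilobase (SD, n = 3), followed by TOP2A at 131 ± 7.29 and CDC20 at 112 ± 6.07. CDC25C was lowest at 2.37 ± 0.146, and CENPE, the next, was at 21.5 ± 1.81. The level of 34 of the 35 genes was above the median of all tested genes on this scale, and 12 were above the level that 90% of tested genes did not reach. Neighbours in the order overlapped between their control libraries in 22 of 34 pairs, so most adjacent ranks are not separated by these libraries. The first 3 ranks did not overlap their next neighbour. With PA4, 20 of the 35 genes held the same rank as in control, and no gene moved by more than 2 ranks.

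**Figure D4:**
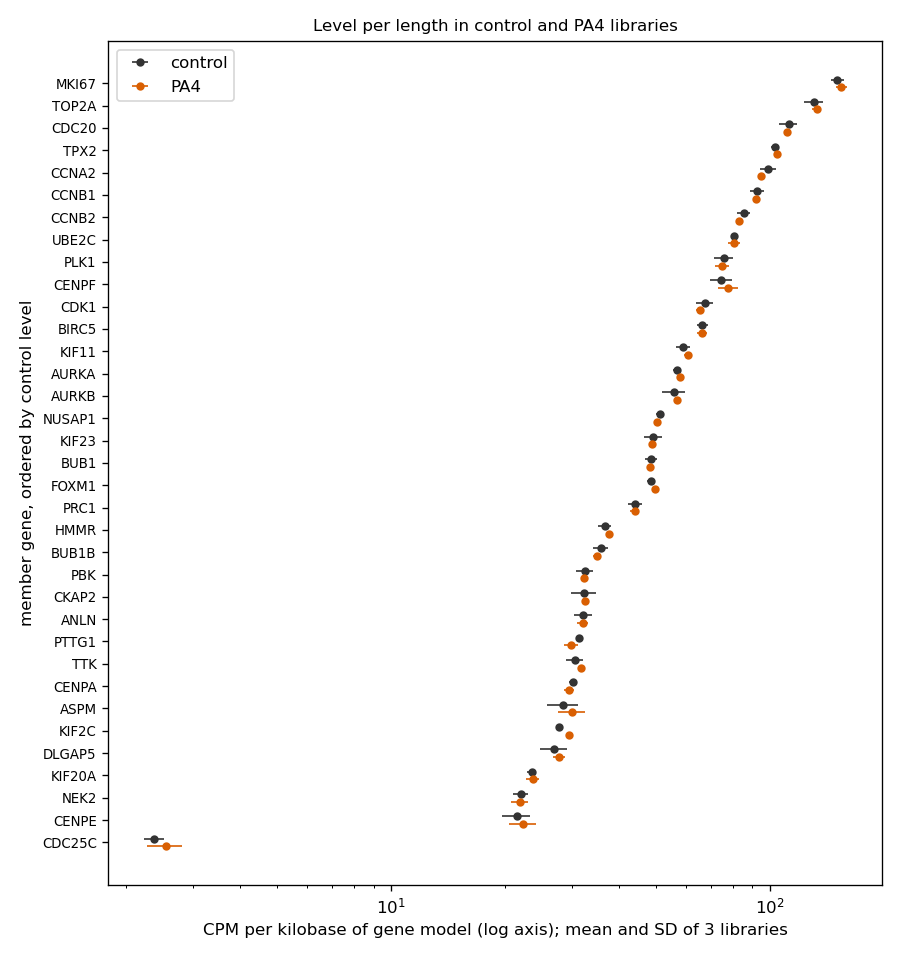
Level per length (CPM per kilobase of gene model, log axis) of each gene in control and with PA4, as the mean of 3 libraries with the SD as a bar, in order of the control level. The 2 groups lie close together from MKI67 at the top (151 in control and 155 with PA4) to CDC25C at the bottom (2.37 and 2.54).

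The spread between libraries of 1 group was larger than the difference between groups for most members. In 33 of 35 genes the difference of the group means was smaller than the range of the 3 control libraries, against 88.2% of all tested genes. It was smaller than the range of the 3 PA4 libraries in 28 genes, and smaller than both ranges in 27. The coefficient of variation was larger in control than with PA4 in 29 of 35 genes, with medians of 4.70% and 2.36%. The wider spread in control was not limited to these genes. Over all genes with at least 20 counts in a pair of libraries, chi-square divided by its degrees of freedom was 2.77 to 6.81 between control libraries. Between PA4 libraries it was 1.48 to 2.11. Control replicate 1 was the lowest of the 6 libraries in 19 of 35 genes, and control replicate 3 was the highest in 14. Apart from the 88.2%, no share over all tested genes is given here for these counts.

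In some libraries the deviations followed the GC content of the transcripts. The members had a median transcript GC content of 43.2%, below the 47.9% of tested genes, and ranged from 35.3% in CENPE to 57.9% in CDC20. Across the 35 genes, the deviation of control replicate 1 from the gene mean had a Spearman rho of 0.809 with GC content, and that of control replicate 3 had -0.707. Over 11438 tested genes with a GC value the same measures were 0.591 and -0.508, so the pattern was not limited to mitotic genes. Genes of 1 library share its preparation and depth and are not independent replicates.

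Of the 12 members with the lowest GC content, 0 were above their own mean in control replicate 1 and 12 were above it in control replicate 3, with median deviations of -0.087 and 0.074 log2. In the 12 members with the highest GC content the medians were 0.023 and -0.028. CDC20, PLK1 and AURKB, which are GC-rich, were highest in control replicate 1, and the GC-poor DLGAP5 and CKAP2 were lowest there. Not every member followed this. FOXM1 (55.6% GC) was highest in PA4 replicate 1, BIRC5 (52.2%) was highest in control replicate 2, and ASPM (37.1%) was lowest in control replicate 2. With offsets that take out this relation in each library, the median standard error of the 35 genes was 0.031 in place of 0.042, and 0 of 35 were called, with a lowest adjusted p of 0.276 in edgeR, for KIF2C. The median log2 fold change of the members was then 0.0067.

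**Figure D5:**
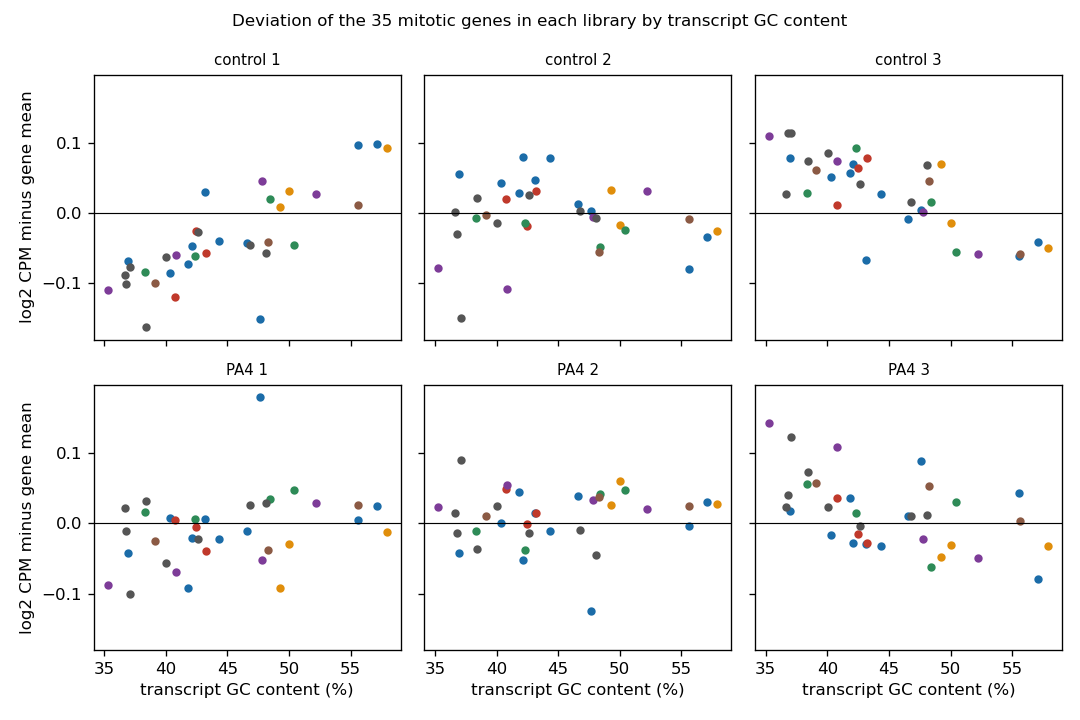
Each panel is 1 library and each point 1 of the 35 genes, with transcript GC content (%) on the horizontal axis and log2 CPM minus the gene's mean over 6 libraries on the vertical axis, in the role colours of the fold change plot. Points rise with GC content in control replicate 1 (rho 0.809) and fall in control replicate 3 (rho -0.707) and PA4 replicate 3 (rho -0.579).

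Other genes of G2 and mitosis, listed by function, also had small differences. Of 118 such genes, 3 of them matched by an older symbol, 0 passed an adjusted p under 0.05 in edgeR, DESeq2 or limma-voom. At an unadjusted p under 0.05 in edgeR 3 were higher and 1 lower, or 3.39% of the list against 5.29% of all tested genes. The median log2 fold change was -0.0027 and the mean 0.0021, of opposite sign. The highest values at a mean of 5 CPM or more were those of CENPI, of the inner kinetochore, at 0.17 ± 0.067 (SE), and KNL1, the kinetochore scaffold for BUB1, at 0.12 ± 0.061 (SE). The lowest were ANAPC10, a subunit of the anaphase-promoting complex, at -0.17 ± 0.073 (SE), and RBL2, which encodes the p130 subunit of DREAM, at -0.084 ± 0.045 (SE). CENPI and ANAPC10 were 2 of the 4 genes with an unadjusted p under 0.05, and the others, STIL at 0.12 ± 0.047 (SE) and LMNB1 at 0.078 ± 0.032 (SE), were named after their values were seen. Their adjusted p-values in edgeR were 0.848 to 0.920.

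By function, medians ran from -0.018 for 22 checkpoint and anaphase-promoting complex genes to 0.023 for 8 further kinesins. The 13 further regulators of CDK1, among them WEE1, CDC25A and CHEK1, had a median of 0.011, and 12 genes of the DREAM and MYB-MuvB complexes had 0.011. The intervals of all 118 genes lay within 1.5-fold. In members with the CHR letters within 100 bases of the start the median log2 fold change was -0.012 (13 genes), and in the 15 without them it was 0.011. Within 250 bases the medians were -0.0044 with (16 genes) and 0.00055 without (12 genes). For the CHR letters together with CCAAT the order changed with the window, at -0.0078 with and 0.0013 without within 100 bases, and 0.012 and -0.0061 within 250 bases.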

How the data were processed

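RNA was measured by sequencing of polyadenylated RNA in 6 libraries of H9 cells, 3 control and 3 PA4, grouped by the treatment given in the labels. The authors deposited raw counts of reads per gene, 1 column per library, with no normalization and no pooling, and a length in bases for every gene. Reads were handled with these tools, per the submitters' processing notes: Trimmomatic 0.39, fastp 0.23.2, STAR 2.7.9a and featureCounts (Subread 1.6.4), with hg38 as the build. The sources used here do not give the annotation, the strand setting or the handling of reads with several alignments.

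The test was that of edgeR 4.0.16 in R 4.3.3 (filterByExpr, TMM factors, glmQLFit and glmQLFTest, two-sided, no covariate, all 6 libraries), with p-values adjusted by the Benjamini-Hochberg method over 12107 genes and calls at an adjusted p under 0.05. The SE of a log2 fold change was taken from the F statistic of its test, and 95% intervals from that statistic's degrees of freedom. Alternatives were DESeq2 1.42.0, limma-voom of limma 3.58.1, other scalings and filters, a replicate block, GC-corrected offsets and fits without 1 library. GC content is that of the longest GENCODE 29 transcript, found for 94.5% of tested genes. Deviations of libraries used log2(CPM + 0.125). The procedure was tested on simulated data. The result for 1 cell type marker is not reported here. No library was a copy of another: chi-square divided by its degrees of freedom was 1.48 to 6.81 between pairs, where sampling noise alone gives about 1.

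The 35 members, the lists of other genes and the comparisons were chosen with earlier results of these data known. Values of every library were to be printed for 12 members of different roles, for any member with an unadjusted p under 0.05, for the 2 highest and 2 lowest log2 fold changes and for the highest and lowest member per length. Of the other lists, called genes were to be named, or otherwise the 2 highest and 2 lowest log2 fold changes at a mean of 5 CPM or more.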

Additional observations from a re-analysis of the deposited data

How the results depend on the processing

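Under 15 alternative settings 0 of the 35 genes and 0 of the 118 other mitotic genes were called, and each median log2 fold change, of all members and of each role, moved by less than 1 SD of the libraries' median deviations for those genes, although some changed sign. The median of all members was -0.0041 with library size alone. With GC-corrected offsets the median of cyclins and kinases was 0.00025 and that of anaphase genes 0.00047, and without 1 library those of cyclins and kinases, checkpoint, anaphase and spindle genes changed sign. The largest size of a member's log2 fold change in any setting was 0.19, in CDC25C without PA4 replicate 2. The lowest adjusted p of a member was 0.142, for CCNA2 without control replicate 1. The count of called genes over the whole table did depend on the setting. Against 28, it was 62 with no low-count filter, 116 with GC-corrected offsets and 150 with these offsets and the replicate block, and 17 to 74 when 1 library was left out (74 with control replicate 1 left out, 17 with control replicate 2 and 18 with PA4 replicate 1).

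The replicate block gave 59 called genes, 0 of them members. Between a control and a PA4 library of the same number, deviations from the group mean correlated at 0.027, -0.0082 and 0.13. Among the control libraries, only number 3 correlated best with the PA4 library of its own number. For replicates 1 to 3, the members' deviations had a Spearman rho with GC content of 0.809, -0.115 and -0.707 in control libraries. In PA4 libraries it was 0.319, 0.245 and -0.579. The labels name no batch or pairing, and whether libraries of the same number share one was not tested. At an unadjusted p under 0.05, where the main count of members is 0, GC-corrected offsets gave 4 members higher and 1 lower (10.9% of tested genes passing), and with the block added 5 and 1 (12.04%). The block alone gave 2 higher and 0 lower (7.10%), and no low-count filter 2 and 0 (4.95%). The direction depended on the library left out: without control replicate 1 it was 0 higher and 2 lower (9.96%), without control replicate 3 it was 4 and 0 (9.49%), and without PA4 replicate 1 it was 2 and 0 (3.79%). The other 8 settings gave 0.

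Signs of members changed in 47 of 525 values (35 genes under 15 settings), 36 of them without 1 library, in 17 genes. The largest main log2 fold change among these genes was 0.052 in size, in CENPE. With GC-corrected offsets, and then with the block added, NEK2 was at 0.0012 and 0.00058, PBK at 0.0024 and 0.0015, CDC20 at 0.00047 and 0.00061, and ANLN at 0.0039 and 0.0041. With library size alone UBE2C was at -0.0041 and BIRC5 at -0.0056, and with no low-count filter PRC1 was at 0.00029. Log2 fold changes without 1 library were CCNB1 -0.041 to 0.015, PLK1 -0.039 to 0.032, AURKB -0.0051 to 0.085, NEK2 -0.046 to 0.037, PBK -0.050 to 0.018, BUB1 -0.031 to 0.016, CDC20 -0.040 to 0.033, UBE2C -0.026 to 0.019, KIF20A -0.010 to 0.044, KIF23 -0.046 to 0.032, CENPE -0.0063 to 0.12, BIRC5 -0.027 to 0.026, DLGAP5 -0.027 to 0.090, CKAP2 -0.039 to 0.070, PRC1 -0.033 to 0.031, ANLN -0.038 to 0.038 and TOP2A -0.015 to 0.065. The cause of these changes was not tested. The estimate for CDC25C rests on 109 to 144 counts per library.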

Other observations

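Genes of the G1/S transition, which make and load the DNA replication machinery, were measured as the neighbouring part of the cell cycle. None of 32 such genes passed an adjusted p under 0.05 in edgeR, DESeq2 or limma-voom. With no adjustment 1 of the 32 was higher and 1 lower at that level in edgeR, where 5.29% of all tested genes passed (2.69% higher and 2.6% lower). The median log2 fold change was 0.026, with 24 of 32 positive (75.0%, against 47.6% of all tested genes). RRM2, the small subunit of ribonucleotide reductase, stood at 564 ± 7.18 CPM in the control libraries against 607 ± 5.63 CPM in the PA4 libraries (mean ± SD, n = 3 per group), a log2 fold change of 0.11 ± 0.029 (SE) with an adjusted p of 0.284 in edgeR, and all 3 PA4 libraries lay above the control libraries. Groups did not overlap in 5 of the 32 genes (15.6%, against 11.2% of all tested genes), 4 of them higher with PA4 and 1 lower. CCNE1, the gene of cyclin E1, was at 0.11 ± 0.074 (SE). GINS1, of the replicative helicase, was at -0.089 ± 0.034 (SE), with its PA4 libraries at 212 to 215 CPM, all below the control libraries at 224 to 231 CPM. PRIM1, a primase subunit, was at -0.046 ± 0.044 (SE). The summed CPM of the 35 mitotic genes divided by that of the 32 G1/S genes was 1.01, 1.03 and 1.10 in control and 1.01, 1.05 and 1.07 with PA4, so the groups overlapped and control held the highest value.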
